A study of Rattus norvegicus with 27 samples.

Results

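Ptprc, Cd68 and Cd74, 3 genes used as markers of white blood cells, were followed through cultures of rat lung fibroblasts. They were taken from the count table by their Ensembl rat gene identifiers, ENSRNOG00000000655 for Ptprc, ENSRNOG00000037563 for Cd68 and ENSRNOG00000018735 for Cd74, and are 3 of 32753 identifiers in that table and 3 of the 14258 that passed the filter on low counts. The symbols come with the choice of genes, because the count table holds identifiers alone.

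The cultures were primary lung fibroblasts of Sprague-Dawley rats, sorted with magnetic beads for CD90 (Thy-1), a surface protein of fibroblasts that rat thymocytes and some other blood-forming cells also carry. All were grown alone, in MucilAir medium, on a coat of rat tail collagen I (38 µg/ml). The surface under the coat was culture plastic or polydimethylsiloxane (PDMS), a soft silicone of 3 to 5 kPa. RNA-seq libraries were made with an Illumina TruSeq RNA kit from 200 ng of total RNA each. On PDMS, RNA was taken after 2, 4, 7 and 14 days, with 4 libraries at each time. On plastic, days 4 and 14 had 4 libraries each and day 7 had 3, numbered 1, 3 and 4. Plastic at day 2 was not analysed here. Per the headers of the count table the cells were wild type. The labels give no agent, no animal age and no animal or culture for a library, so p-values measure the spread between libraries, which may be technical.

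Ptprc encodes CD45, a receptor tyrosine phosphatase that sets the threshold of antigen receptor signalling through Src family kinases and is carried by nearly all nucleated blood-forming cells. Cd68 encodes a heavily glycosylated membrane protein of late endosomes and lysosomes that is abundant in macrophages and is also found, at low level, in fibroblasts. Cd74 encodes the invariant chain, which guides MHC class II molecules through the cell, blocks their peptide groove until they reach the endosome and, at the surface, binds the cytokine MIF. It is made by macrophages, dendritic cells and B cells, and interferon gamma can induce it in other cells. In lung, alveolar and interstitial macrophages carry all of these products.

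The sequence before each gene's start is shown as a description, because the markers are read from separate promoters. Its part in the markers' levels was not tested. Each sequence is from RefSeq, build GRCr8, 5′ to 3′ on the gene's own strand, and ends where the annotated gene begins. The Ptprc sequence is chr13:52259811-52259996 (minus strand, 186 bases), the Cd68 sequence chr10:54882442-54882691 (minus strand, 250 bases) and the Cd74 sequence chr18:56526956-56527070 (plus strand, 115 bases). Capitals mark the words GGAAGTAAGA and CCAAT.
Ptprc: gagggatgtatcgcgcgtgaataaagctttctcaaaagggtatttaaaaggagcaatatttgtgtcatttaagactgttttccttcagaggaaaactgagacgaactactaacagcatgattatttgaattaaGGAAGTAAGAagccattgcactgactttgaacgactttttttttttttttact
Cd68: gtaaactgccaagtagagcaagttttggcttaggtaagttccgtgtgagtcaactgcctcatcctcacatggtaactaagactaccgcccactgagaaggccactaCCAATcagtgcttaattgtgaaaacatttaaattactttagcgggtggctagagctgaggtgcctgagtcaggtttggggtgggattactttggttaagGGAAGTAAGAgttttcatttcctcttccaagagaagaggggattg
Cd74: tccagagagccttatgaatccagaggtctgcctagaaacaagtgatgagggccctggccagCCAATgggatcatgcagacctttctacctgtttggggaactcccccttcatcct

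The word GGAAGT, which holds the GGAA core read by ETS family factors such as PU.1, was searched on both strands. It lay at base 134 of the Ptprc sequence, counted from its 5′ end, and 13.3% of 33469 RefSeq rat promoter windows of that length hold it. In the Cd68 sequence it lay at base 206, against 19.2% of windows of that length. The Cd74 window does not hold GGAAGT, although the core letters GGAA alone occur in it. The core alone was not searched for in the other windows. GGAAGTAAGA, the whole stretch around GGAAGT that the Ptprc and Cd68 sequences share, was picked from these sequences and is in 23 and 36 of the 33469 windows of those lengths, these 2 genes' own windows included. CCAAT, the word read by the NF-Y factor, lay at base 107 of the Cd68 sequence and base 62 of the Cd74 sequence, against 11385 and 5513 of the 33469 windows of those lengths, and was not in the Ptprc window. A match of letters is a description of the sequence and was not tied to binding in these cells.

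Library totals ran from 17285101 to 25334417 counts. Levels are CPM, counts scaled to a common library total after TMM normalization, and are not comparable between the 3 genes because gene lengths were not used. The fibroblast, endothelial, epithelial and finer leukocyte marker lists are written as symbols and could not be looked up by identifier, so the labelled cell type was not checked against its markers and the markers' cell of origin was not tested. Within groups, some libraries departed from their group mean together over all 14258 genes. A set of 4 libraries was linked by correlations of their deviations of 0.53 to 0.76. They were Plastic day 4 replicate 3, Plastic day 7 replicate 3, Plastic day 14 replicate 4 and PDMS day 14 replicate 3. The falls to day 14 from days 2 and 4, the surface differences at day 7 and the correlations within groups are given with and without them. The orders of groups, the ratios, the spread and the likenesses between genes were not run without this set. A second set was linked by correlations of 0.52 to 0.85, namely PDMS day 2 replicate 2, PDMS day 4 replicate 2, Plastic day 4 replicates 1 and 2, Plastic day 7 replicate 4 and Plastic day 14 replicate 1. These 6 libraries were below their group mean in all 3 markers, and the comparisons were also run without them. Plastic day 4 replicates 1 and 2, and Plastic day 14 replicates 2 and 3, were closely alike. Their counts differed beyond sampling noise (chi-square per degree of freedom 7.76 and 8.15), so each was kept as a library, although for other pairs of a group that ratio was at least 32.1.

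Ptprc was highest at PDMS day 2 and near the floor of detection in some day 14 libraries. At PDMS day 2 its level was 319, 87.8, 103 and 32.7 CPM in replicates 1 to 4. At PDMS day 4 it was 58.2, 13.7, 70.3 and 30.8 CPM. At PDMS day 7 it was 16.6, 6.49, 3.63 and 10.8 CPM. Replicate 1 stood far above the others at day 2, and the lowest day 2 library lay below the highest day 4 libraries. At PDMS day 14 Ptprc was 1.02, 1.82, 9.24 and 0 CPM. The last library had 0 counts among 24446338, which allows up to 0.127 CPM (3 counts, counting error only). Replicate 3, one of the first linked set, overlapped the day 7 range, and the other day 14 libraries lay below it.

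On plastic Ptprc was 17.8, 15.3, 90.5 and 25.6 CPM at day 4. At day 7 it was 3.49, 9.68 and 0.747 CPM in replicates 1, 3 and 4. At day 14 it was 0.256, 1.28, 1.06 and 8.60 CPM, the lowest of these from 5 counts. The highest library at each day on plastic was one of the first linked set, and the lowest at each day was one of the second. All day 4 values lay above all values of days 7 and 14, while days 7 and 14 overlapped.

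Cd68 was likewise highest at PDMS day 2. At PDMS day 2 it was 670, 73.3, 638 and 87.5 CPM. At PDMS day 4 it was 127, 21.7, 185 and 145 CPM. At PDMS day 7 it was 50.5, 17.1, 19.5 and 45.3 CPM. The day 2 libraries fell into a high pair, replicates 1 and 3, and a low pair, replicates 2 and 4, and the low pair lay within the day 4 range. At PDMS day 14 Cd68 was 9.44, 7.87, 49.0 and 3.01 CPM. Replicate 3 was as high as the upper day 7 libraries and above the lowest day 4 library, and the other day 14 libraries were under every earlier one.

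Cd68 on plastic was 33.8, 35.6, 324 and 109 CPM at day 4. At day 7 it was 10.7, 31.2 and 3.91 CPM. At day 14 it was 2.41, 5.11, 3.91 and 29.6 CPM. Replicate 3 of day 4 and replicate 4 of day 14 stood well above the rest of their groups, and days 4 and 14 did not overlap. Cd68 was detected in every library, the lowest value coming from 47 counts.

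Cd74 had the widest spread at the start. At PDMS day 2 it was 1064, 46.5, 418 and 17.0 CPM, a ratio of 62.7 between the highest and the lowest library of the same group. At PDMS day 4 it was 148, 17.9, 90.6 and 43.6 CPM. At PDMS day 7 it was 19.7, 11.3, 10.0 and 6.13 CPM. The lowest day 2 library lay under every day 4 library and within the day 7 range. At PDMS day 14 Cd74 was 5.68, 4.27, 15.9 and 0.636 CPM. Replicate 3 lay within the day 7 range, and the remaining libraries were lower than all of day 7.

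Cd74 on plastic was 41.5, 45.1, 83.2 and 72.0 CPM at day 4, the tightest group of any marker, with an SD of 0.49 on the log2 scale (n = 4). At day 7 it was 4.41, 26.5 and 5.40 CPM. At day 14 it was 1.13, 4.01, 1.90 and 33.9 CPM. Replicate 4 at day 14 was higher than every day 7 library but below all of day 4, so day 4 again did not overlap with later days.

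**Figure D1:**
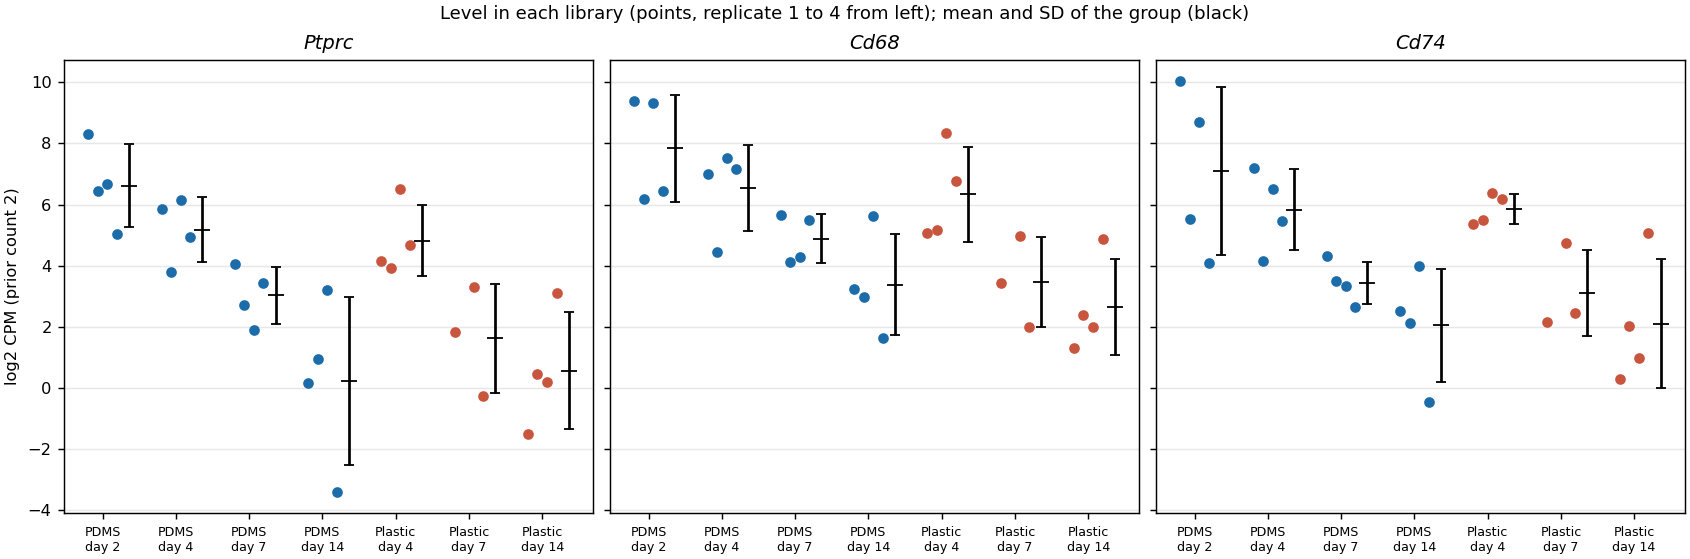
Level of Ptprc, Cd68 and Cd74 on the y axis as log2 CPM (prior count 2) in each of 27 libraries (points, replicates in order from the left), by group on the x axis, with the group mean and SD in black. PDMS is blue and plastic is red. In each panel the day 14 groups have the lowest means and 1 library well above the others, and the Ptprc point near the bottom at PDMS day 14 is the library with 0 counts, whose position depends on the prior count.

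In the order of mean log2 CPM, PDMS day 2 came first for all 3 markers, with means of 6.62 for Ptprc, 7.84 for Cd68 and 7.10 for Cd74. The day 4 groups came next, then PDMS day 7 and Plastic day 7, and the day 14 groups were last. No pair of neighbours in these orders passed a test against their spread, but with 18 tests and a smallest possible p of 0.0286 (0.0571 where Plastic day 7 enters) a miss says little. In 18 exact two-sided permutation tests, the lowest p was 0.0571 (adjusted 0.514 by Benjamini-Hochberg), for Ptprc between Plastic day 4 and PDMS day 7 and for Cd74 between PDMS day 4 and PDMS day 7.

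All 3 markers fell from day 2 to day 14 on PDMS. Ptprc was 45.5-fold lower, with a log2 fold change of -5.51 ± 1.21 (SE, n = 4 and 4, edgeR quasi-likelihood test, adjusted p = 0.000838). Cd68 was 21.2-fold lower, at -4.41 ± 1.11 (edgeR, adjusted p = 0.0025). Cd74 was 58.5-fold lower, at -5.87 ± 1.30 (edgeR, adjusted p = 0.000873). Among all 14258 genes 27.3% passed the test as lower in this comparison, and 20.2% had day 14 libraries all below the day 2 libraries, as all 3 markers did. A lower fold change than that of Ptprc was found in 2.17% of genes, than that of Cd68 in 4.69% and than that of Cd74 in 1.56%. In RNA from whole cultures, a smaller share of cells that carry a marker and less of its RNA per cell cannot be told apart. CPM is itself a share of each library, so the number of such cells is not known. Without the 4 linked libraries the log2 fold changes were -7.17 for Ptprc, -5.78 for Cd68 and -6.80 for Cd74. Without the second set they were -5.66, -4.74 and -6.23, all past the threshold. Of the groups compared here, the first set takes out only PDMS day 14 replicate 3, the highest of its group in each marker. The second takes out only PDMS day 2 replicate 2, which was below its group mean in each. Leaving out either one widens the fall by itself, so these calls are no check on it.

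From day 4 to day 14 on PDMS the 3 markers fell as well, with a median of all genes of -0.03 on the log2 scale. Ptprc was 14.5-fold lower, at -3.86 ± 1.13 (edgeR, adjusted p = 0.0171). Cd68 was 6.92-fold lower, at -2.79 ± 1.04 (edgeR, adjusted p = 0.0474). Cd74 was 11.4-fold lower, at -3.51 ± 1.17 (edgeR, adjusted p = 0.0298). The background of genes called lower was 15.2%, and 17.1% of genes had groups without overlap in that direction. Ptprc and Cd74 were among the latter, while the Cd68 groups overlapped. The Cd68 call was lost without any 1 of replicates 1, 3 and 4 of day 4 or 1, 2 and 4 of day 14 (edgeR, adjusted p up to 0.113), and the Cd74 call without any 1 of replicates 1 and 3 of day 4 or 1, 2 and 4 of day 14 (up to 0.0829). Without the 4 linked libraries all 3 markers passed, at -5.48 for Ptprc, -4.12 for Cd68 and -4.38 for Cd74. They also passed without the second set, at -4.13, -3.12 and -3.80. Of the groups compared here, these sets take out only PDMS day 14 replicate 3, the highest of its group, and PDMS day 4 replicate 2, the lowest of its group, in each marker. Either removal widens the fall by itself, so these calls do not offset those lost above. Over all genes 4075 were called in either direction, but 2590 when PDMS day 4 replicate 1 was left out and 2617 for PDMS day 14 replicate 3.

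On plastic, Ptprc and Cd68 fell from day 4 to day 14. Ptprc was 13.3-fold lower, at -3.73 ± 1.13 (SE, n = 4 and 4, edgeR, adjusted p = 0.0157). Cd68 was 12.2-fold lower, at -3.61 ± 1.08 (edgeR, adjusted p = 0.0146). Cd74 had a log2 fold change of -2.56 ± 1.12 and missed the threshold (edgeR, adjusted p = 0.0823), although no day 14 library reached a day 4 library. Of all genes, 18.3% were called lower, and 14.3% had groups without overlap in that direction, as all 3 markers did. Without Plastic day 14 replicate 4, the library with 33.9 CPM, Cd74 passed at -4.70 (edgeR, adjusted p = 0.0101). Without Plastic day 4 replicate 3, the library with the highest levels at that day, Ptprc missed at -2.76 (adjusted p = 0.0503) and Cd68 at -2.49 (adjusted p = 0.0587). Without the 4 linked libraries, Ptprc was at -4.48, Cd68 at -3.94 and Cd74 at -4.48, each past the threshold (edgeR, adjusted p = 0.00324, 0.00453 and 0.00927). Without the second set Ptprc missed at -3.95 (edgeR, adjusted p = 0.0658) and Cd68 passed at -4.04 (0.04), and genes called in either direction went from 4641 to 1019. They were 3075 without Plastic day 4 replicate 2 alone. Both calls were also lost in a fit of the compared groups alone (edgeR, adjusted p = 0.0502 for Ptprc and 0.0541 for Cd68) and with a replicate block (0.0763 and 0.0745), and that of Ptprc with the alike pairs summed (0.0555).

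No single step between neighbouring days passed the test for any marker, and all 15 of these log2 fold changes were negative. From PDMS day 2 to day 4 the changes were -1.65 for Ptprc, -1.62 for Cd68 and -2.36 for Cd74, with 0 of 3 called where 4.85% of all genes were called lower. That share rests on single libraries: leaving out replicate 1 of day 2 gave 31 of 14135 genes called lower, and leaving out replicate 4 of day 2 gave 1540 of 14248. Fitted on these 2 groups alone, 0 of 13218 genes were called in either direction. With the replicate number as a block 263 were called, with no marker among them. Only 1 of 4 libraries here correlated best with its own number, so the block is not shown to hold true pairs. The fit of all groups called 1428. From PDMS day 4 to day 7 they were -2.20, -1.86 and -2.67 (0 of 3 called, background 0.147%). From PDMS day 7 to day 14 they were -1.66, -0.94 and -0.84 (0 of 3, background 2.6%). In this last step the 788 genes called in either direction became 5 without replicate 2 of day 7, 62 without replicate 4 of day 7 and 22 without replicate 3 of day 14.

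On plastic the step from day 4 to day 7 was -3.00 for Ptprc, -3.04 for Cd68 and -2.32 for Cd74 (edgeR, adjusted p = 0.21, 0.196 and 0.311). All 3 markers had groups without overlap in this step, as did 8% of all genes in the lower direction. edgeR called 0% of all genes, that is 0 of 14258, where 2665 had an unadjusted p under 0.05, DESeq2 called 388 and limma-voom 2, and edgeR 528 without Plastic day 4 replicate 3. From Plastic day 7 to day 14 the changes were -0.74, -0.58 and -0.24, with 0 of 3 called and a background of 0.0631%. The last steps lean on single libraries. On PDMS the change of Ptprc from day 7 to day 14 was -3.30 without PDMS day 14 replicate 3. On plastic that of Ptprc was -2.45 without replicate 4 of day 14 and 0.40 without replicate 3 of day 7. With 1 library left out, this step on plastic ran from -2.01 to 0.49 for Cd68 and from -2.38 to 1.06 for Cd74.

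**Figure D2:**
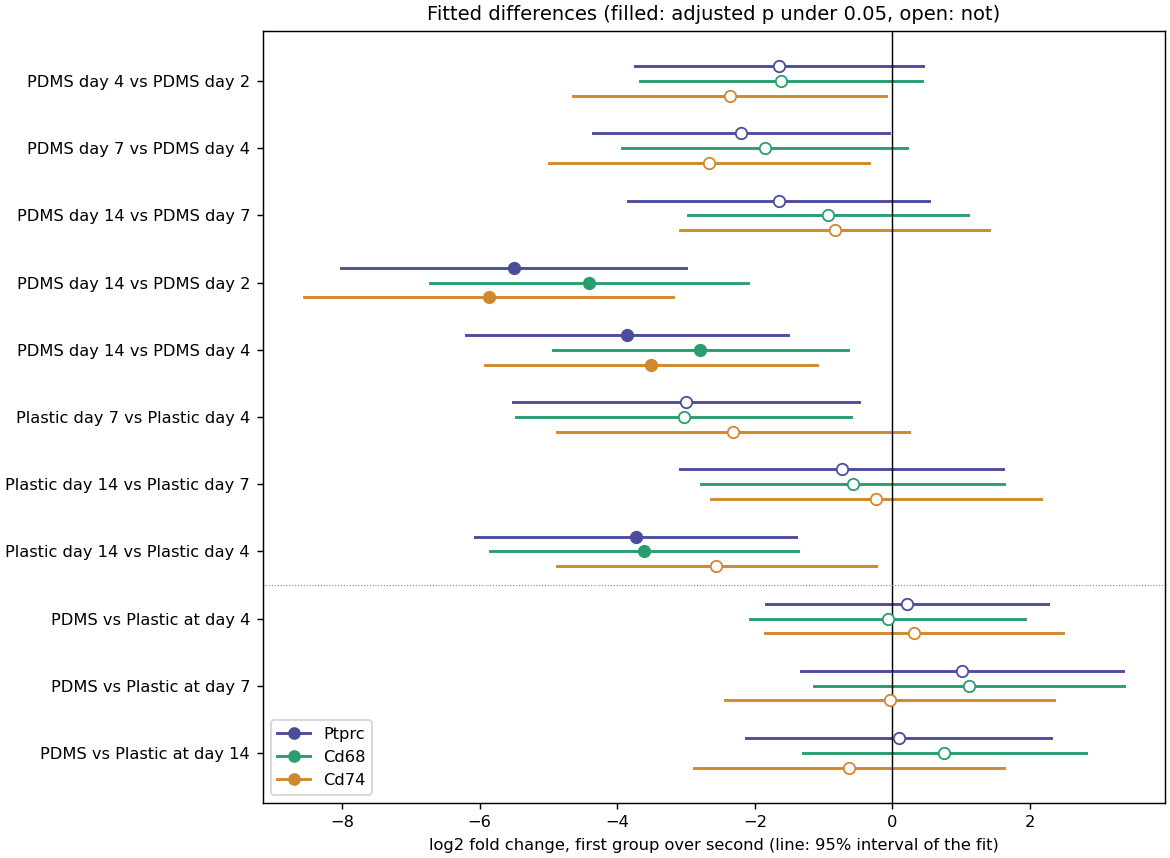
Fitted log2 fold changes (x axis, first group over second) of Ptprc, Cd68 and Cd74 for 8 comparisons of days and 3 of surfaces (y axis), with 95% intervals of the fit as lines. Filled points passed an adjusted p of 0.05. The filled points are all 3 markers for PDMS day 14 against days 2 and 4, and Ptprc and Cd68 for Plastic day 14 against day 4, and the intervals for PDMS against plastic all include 0.

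PDMS and plastic could be compared at days 4, 7 and 14, and no marker passed the test at any of them. At day 4 the PDMS libraries were at 0.21 for Ptprc on the log2 scale relative to plastic (95% interval -1.84 to 2.26), at -0.07 for Cd68 (-2.07 to 1.93) and at 0.31 for Cd74 (-1.86 to 2.48). edgeR called 0% of all genes there, with 1246 at an unadjusted p under 0.05, 24 called by DESeq2 and 0 by limma-voom, but 245 by edgeR without Plastic day 4 replicate 3 and 462 without the 4 linked libraries. At day 7 the differences were 1.01 for Ptprc (-1.33 to 3.35), 1.11 for Cd68 (-1.14 to 3.36) and -0.04 for Cd74 (-2.43 to 2.36), against a background of 0.849% called. Without the 4 linked libraries they were 2.13, 2.17 and 1.25, none past the threshold (edgeR, adjusted p = 0.277, 0.248 and 0.614). The 121 genes called at day 7 became 600 without those libraries and 0 without any 1 of PDMS day 7 replicates 1, 2 and 4 or Plastic day 7 replicate 1. Leaving out Plastic day 7 replicate 3 gave 193 and replicate 4 of that group 31. At day 14 they were 0.09 (-2.13 to 2.31), 0.75 (-1.30 to 2.81) and -0.63 (-2.89 to 1.62), with 0% of genes called by edgeR, 1266 at an unadjusted p under 0.05, 113 called by DESeq2 and 2 by limma-voom, and by edgeR 88 without Plastic day 14 replicate 4, 8 without the 4 linked libraries and 6 when PDMS day 14 replicate 2 was left out. These intervals span severalfold differences in both directions, so the surfaces are not shown to be alike. Under other processing or with a library left out, the sign turned for every marker at days 4 and 14 and for Cd74 at day 7. A direct test of whether the fall from day 4 to day 14 differed between the surfaces gave -0.12 ± 1.46 for Ptprc, 0.82 ± 1.38 for Cd68 and -0.95 ± 1.51 for Cd74 (edgeR interaction, lowest adjusted p = 0.952), where 0% of all genes were called.

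Libraries of a group differed far more in these markers than in most genes. The SD within groups, pooled over the 7 groups on the log2 scale, was 1.67 for Ptprc, 1.49 for Cd68 and 1.70 for Cd74, where the median gene had 0.35. It exceeded that of 98.8% of the 14258 genes for Ptprc, 97.6% for Cd68 and 98.9% for Cd74. Over all 27 libraries Ptprc ranged over 11.7 log2 units, Cd68 over 8.07 and Cd74 over 10.5, against a median of 1.79. The Ptprc range and SD, with the share of genes below that SD, include the library with 0 counts and depend there on the prior count.

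Deviations of the markers from their group means were correlated across libraries, although in single libraries, such as PDMS day 7 replicate 4 and PDMS day 14 replicate 2, the markers lay on different sides of the mean. After removal of the group means, Pearson r between Ptprc and Cd68 was 0.871 over 27 libraries, and Spearman rho was 0.898 (permutation within groups, adjusted p = 2e-05 and 1e-05). For Ptprc and Cd74 r was 0.825 and rho 0.835, and for Cd74 and Cd68 r was 0.84 and rho 0.853 (permutation, adjusted p at most 3e-05). Without the 2 libraries farthest from the median of the first-named marker, r was 0.868, 0.797 and 0.809. Each of the 4 linked libraries was the highest of its group in all 3 markers, and without them r was 0.752, 0.751 and 0.799 (permutation p = 9e-05, 0.00028 and 0.0022). Without the second set r was 0.903, 0.832 and 0.855 (permutation p = 0.00012, 0.00036 and 0.0016).

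**Figure D3:**
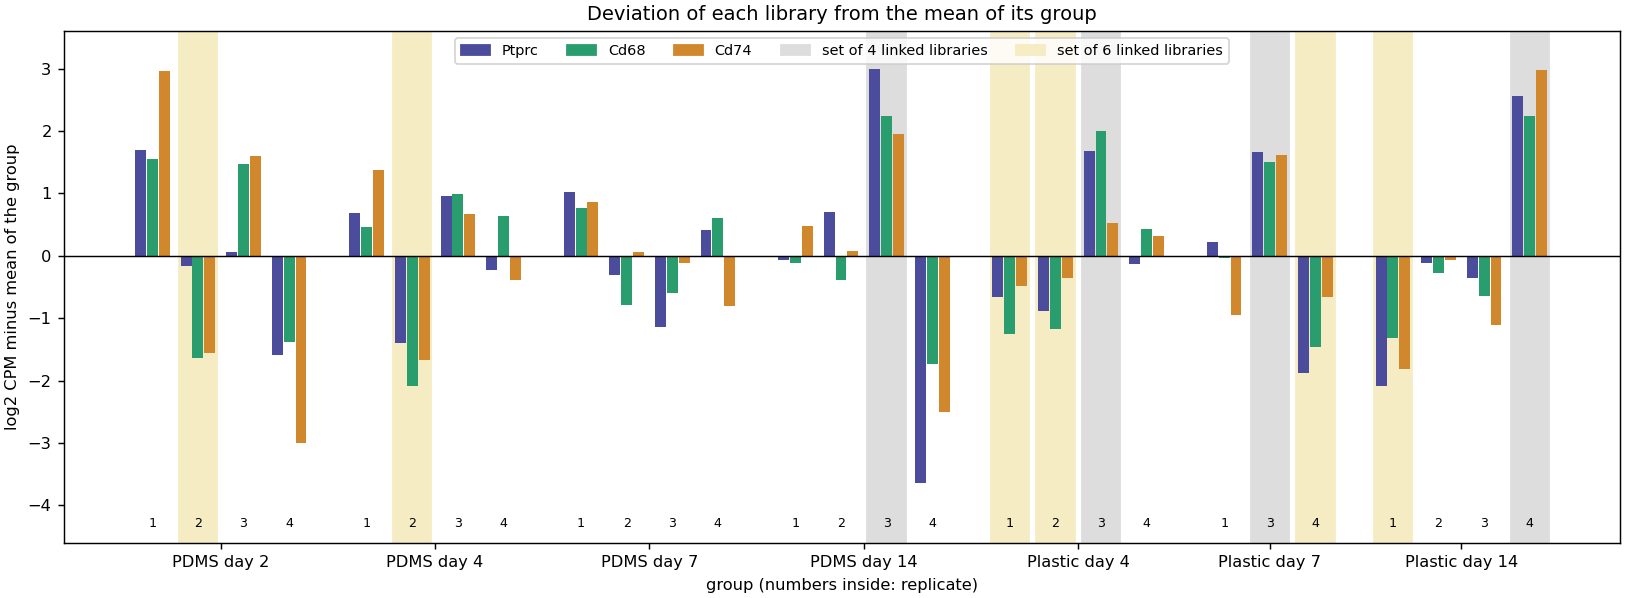
Deviation of each library from its group mean (y axis, log2 CPM) for Ptprc, Cd68 and Cd74 (bars), with libraries grouped along the x axis and numbered by replicate. Grey bands mark the set of 4 linked libraries, whose bars are above 0 for every marker, from 0.52 for Cd74 in Plastic day 4 replicate 3 to 3.00 for Ptprc in PDMS day 14 replicate 3. Yellow bands mark the set of 6, whose bars are all below 0, down to -2.09 for Cd68 in PDMS day 4 replicate 2.

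The markers also moved with a wider pattern of spread among libraries. A principal component analysis of the deviations of 13976 genes, made without the markers and the genes most like them (282 genes in all), gave a first component with 33.9% of the variance within groups. Over 27 libraries the score on it had r = 0.852 and rho = 0.851 with the Cd68 deviation (permutation within groups, adjusted p = 2e-05 and 1e-05). With Ptprc r was 0.635 and rho 0.686 (adjusted p = 0.0002 and 0.0003), and with Cd74 r was 0.562 and rho 0.642 (adjusted p = 0.0005 and 0.0007). Without the 2 libraries farthest on the component r was 0.823 for Cd68, 0.547 for Ptprc and 0.531 for Cd74. Without the 4 linked libraries the Cd68 relation held, at r = 0.783 (permutation p = 0.001), while Ptprc had r = 0.351 (p = 0.052) and Cd74 r = 0.403 (p = 0.077), so these relations rest in part on those libraries. Without the second set r was 0.78 for Cd68, 0.61 for Ptprc and 0.566 for Cd74 (permutation p = 0.00083, 0.0055 and 0.014). In each case the component was not refitted, so the scores still come from a component shaped by the libraries left out. The relations with the component were added after the data were seen, and its part in the markers' levels was not tested.

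**Figure D4:**
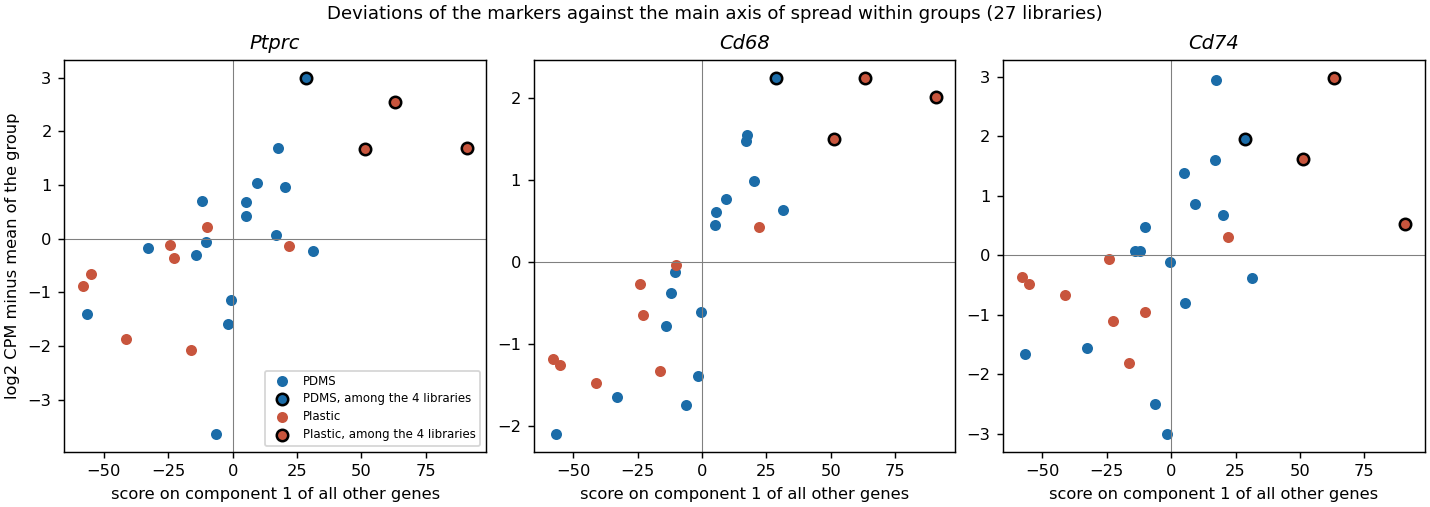
Deviation of Ptprc, Cd68 and Cd74 from the group mean (y axis, log2 CPM) against the score on component 1 of the other 13976 genes (x axis), for 27 libraries as points. Black rings mark the 4 linked libraries, which have scores of 28.7 to 91.0 and positive deviations in every panel, and the Cd68 points lie closest to a line (r = 0.852).

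The markers were not kept in 1 proportion to each other. Among the PDMS day 2 libraries the count of Cd74 was 1.59 times that of Cd68 in replicate 1, 0.634 in replicate 2, 0.654 in replicate 3 and 0.194 in replicate 4. The count of Ptprc over that of Cd74 in the same libraries was 0.3, 1.89, 0.247 and 1.93. Replicates 1 and 3, the libraries rich in Cd68 and Cd74, were thus low in Ptprc relative to Cd74, and replicates 2 and 4 the reverse. Relative to Cd68 this split did not hold, with Ptprc over Cd68 at 0.476, 1.2, 0.161 and 0.374 in replicates 1 to 4. Ratios are within a library and do not depend on the scaling.

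Changes of these ratios between groups did not pass a test, and with 18 tests on 3 or 4 libraries a group a miss says little. The log2 ratio of Ptprc to Cd68 had a mean of -1.22 ± 1.19 (SD, n = 4) at PDMS day 2, -1.36 ± 0.66 at PDMS day 4, -1.87 ± 0.46 at PDMS day 7 and -3.71 ± 2.34 at PDMS day 14. The plastic groups had -1.52 ± 0.54 at day 4, -1.88 ± 0.40 (n = 3) at day 7 and -2.18 ± 0.62 at day 14. This mean was lower at each later day on both surfaces, with overlap between groups. The other ratios did not show that order on both surfaces. Ptprc to Cd74 had means of -0.47, -0.65, -0.42 and -2.35 over the PDMS days, and Cd74 to Cd68 of -0.74, -0.70, -1.45 and -1.36. On plastic the means were -1.04, -1.53 and -1.62 for Ptprc to Cd74, which were lower at each later day, and -0.48, -0.35 and -0.56 for Cd74 to Cd68. The lowest p of 18 exact permutation tests, for Ptprc to Cd68 at PDMS day 14 against day 4, was 0.0571 (adjusted 0.468), with a difference of -2.36. That difference leans on the library with 0 Ptprc counts, without which it was -1.21.

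**Figure D5:**
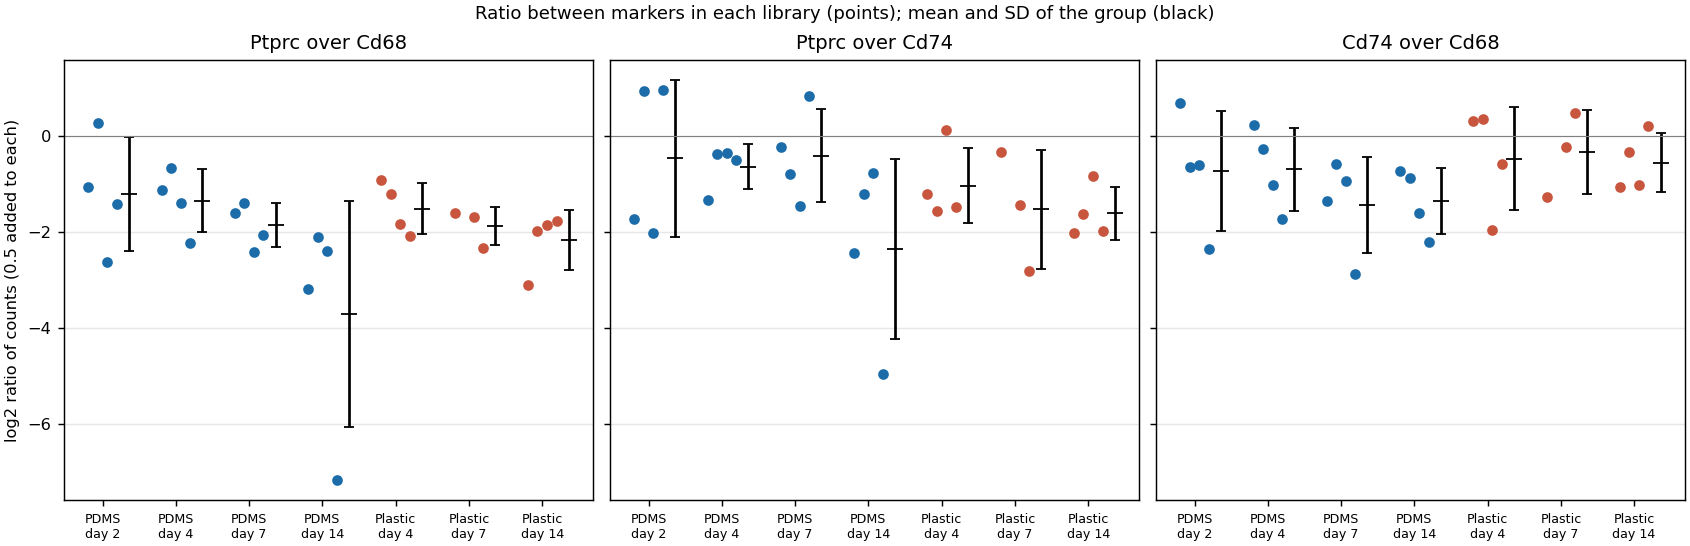
Log2 ratio of counts (y axis, 0.5 added to each count) of Ptprc over Cd68, Ptprc over Cd74 and Cd74 over Cd68 in each library (points), by group (x axis), with the group mean and SD in black. The PDMS day 2 ratios of Cd74 over Cd68 span -2.37 to 0.67, and the lowest Ptprc ratios, at PDMS day 14, are from the library with 0 Ptprc counts.

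Other genes shared the markers' profile over all 27 libraries. A Pearson r over 0.9 of log2 CPM was found with Ptprc for 205 of 14257 other genes (1.44%), with Cd68 for 262 (1.84%) and with Cd74 for 202 (1.42%). With all 3 markers at once it was found for 174 of 14255 (1.22%). These libraries share days and groups, and the same count was not made for a typical gene, so the values are descriptions. Among all other genes Cd68 ranked 98 in likeness to Ptprc (r = 0.949) and Cd74 ranked 145 (r = 0.93), so many genes were closer to each marker than the markers were to each other.

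The highest of these likenesses was that of ENSRNOG00000032844 to Cd74, with r = 0.993 over the 27 libraries. Its level was 131 ± 176 CPM (SD, n = 4) at PDMS day 2 and 1.89 ± 2.03 at PDMS day 14, with 21.7 ± 5.48 at Plastic day 4 and 3.09 ± 4.76 at Plastic day 14. Closest to Ptprc was ENSRNOG00000061403, with r = 0.992, at 130 ± 108 CPM at PDMS day 2 and 3.51 ± 4.58 at PDMS day 14. It had 40.5 ± 35.4 CPM at Plastic day 4 and 2.59 ± 3.84 at Plastic day 14. Both were highest at PDMS day 2 and lowest at day 14, as the markers were. They were picked for their likeness over these same libraries, so this order follows from the choice. The files give neither a name.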

How the data were processed

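The authors deposited whole-number counts per Ensembl rat gene ID, and these raw counts were used. Per the submitters' processing notes, FastQC 0.11.2, STAR, Cufflinks 2.2.1 and DESeq2 were used. For the counting program, its strand setting, the build and the annotation, the entry is "not given in the sources used here", and overlapping or near-identical genes may share reads. Deposited length-scaled and variance-stabilized tables were not used, nor was 1 of 28 count columns, which matches no listed sample. Of 32753 IDs, 0 matched a symbol in the RefSeq GRCr8 gene table, so the gene lists and cell type markers could not be looked up and were not analysed here. The markers and lists were chosen with earlier results of these data known.

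Counts were fitted in edgeR 4.0.16 (R 4.3.3) with filterByExpr (count 10, total 15, leaving 14258 genes and at least 99.9% of each library's counts), TMM (factors 0.88 to 1.18), 1 mean per group over 27 libraries and 20 residual degrees of freedom. A call is an adjusted p under 0.05 (two-sided, Benjamini-Hochberg over all genes). The script was tested on simulated data. Genes named beside the markers are the identifiers with the highest Pearson r to a marker, at most 2. Single values were compared by exact two-sided permutation tests (SciPy 1.17.1), with a smallest p of 0.0286 for 4 against 4 libraries and 0.0571 for 4 against 3. Within-group correlations used 100000 permutations within groups, over 6 relations, with a smallest p of 1e-05. Promoter sequences are from RefSeq GRCr8, the bases of a window from 250 before the listed start that lie outside the annotated gene. Motif matches were sought on both strands, and shares are of first stretches of the same length in 33469 windows.

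Replicate numbers were checked as pairs by the correlation of same-numbered libraries' deviations over all genes. Every pair was over 0.1 only for PDMS day 4 against day 2 (0.14 to 0.57), where 1 of 4 libraries correlated best with its own number. Alternatives were library-size scaling, no filter, DESeq2 1.42.0, limma-voom (limma 3.58.1), the compared groups alone, a replicate block, leaving out each library, summing closely alike pairs and, added after seeing the data, leaving out either set of linked libraries (4 or 6) or 1 of each closely alike pair. A fit of the length-scaled table was not run. Depth was 17285101 to 25334417 counts, and floors of 3 counts cover counting error only.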

Additional observations from a re-analysis of the deposited data

How the results depend on the processing

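The falls of all 3 markers from PDMS day 2 to day 14 kept direction and call under every alternative run. Among these, leaving out either linked set widens the fall by the library it takes out and is no check on it. Leaving out 1 library gave log2 fold changes of -7.15 to -4.62 for Ptprc, -5.76 to -3.93 for Cd68 and -6.77 to -4.58 for Cd74. For PDMS day 14 against day 4, leaving out 1 library gave -4.14 to -2.44 for Cd68 and -4.41 to -2.92 for Cd74. Cd68 missed the threshold with no filter (-2.81), with the compared groups alone (-2.79) and with alike pairs summed (-2.79). For Plastic day 14 against day 4, leaving out 1 library gave -5.44 to -2.76 for Ptprc, -5.05 to -2.49 for Cd68 and -4.70 to -2.18 for Cd74. With the compared groups alone Ptprc (-3.72) and Cd68 (-3.60) missed, and with pairs summed Ptprc (-3.75) did. Cd74 passed with DESeq2 (-2.58) and without the 4 linked libraries (-4.48). Ptprc missed without the second linked set (-3.95). The cause was not tested.

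With the replicate block, Plastic day 14 against day 4 missed for Ptprc (-4.29) and Cd68 (-3.58), and genes called fell from 4641 to 81, with 2519 for the same groups without the block. These libraries share only a number, and 2 of 4 correlated best with their own. The block also turned the sign for PDMS against plastic of Cd68 (0.17) and Cd74 (-0.057) at day 4 and of Cd74 at day 7 (0.27) and day 14 (0.60), and of the Cd74 interaction of day 7 against 4 (0.32). It changed no other call.

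None of the surface differences passed the threshold in any setting, and many turned sign. Library-size scaling gave 0.013 for Cd68 at day 4 and 0.066 for Cd74 at day 7, and for PDMS day 14 against day 2 it took the all-gene median from -0.05 to -0.20. limma-voom gave 0.20 for Cd68 and -0.023 for Cd74 at day 4, 0.32 for Cd74 at day 7, -0.86 for Ptprc at day 14 and 0.34 for the Cd74 interaction of day 7 against 4. Pairs summed gave -0.030 and -0.14 for Ptprc at days 4 and 14, and 0.048 for Cd74 at Plastic day 14 against day 7. Without the second linked set Ptprc was at -0.13 at day 4 and -0.32 at day 14. Without the 4 linked libraries the values were 1.01 for Cd68 at day 4, 1.25 and 0.60 for Cd74 at days 7 and 14, and -0.18 for Cd68 and 0.10 for Cd74 in the interaction of day 14 against 4 and 0.75 for Cd74 in that of day 7 against 4.

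Leaving out 1 library, PDMS against plastic ran at day 4 from -0.12 to 1.15 for Ptprc, -0.39 to 1.02 for Cd68 and -0.25 to 0.63 for Cd74. At day 7 it ran from -0.44 to 1.27 for Cd74, and at day 14 from -1.56 to 1.80 for Ptprc, -0.60 to 2.18 for Cd68 and -1.53 to 1.50 for Cd74. Plastic day 14 against day 7 ran from -2.45 to 0.40 for Ptprc, -2.01 to 0.49 for Cd68 and -2.38 to 1.06 for Cd74. Interactions of day 14 against 4 ran from -1.77 to 1.58 (Ptprc), -0.53 to 2.26 (Cd68) and -1.85 to 1.19 (Cd74). Those of day 14 against 7 ran from -2.57 to 0.79, -1.71 to 1.08 and -1.90 to 1.54, and those of day 7 against 4 from -0.11 to 1.93 for Ptprc and -0.75 to 0.96 for Cd74. Log2 ratios between surfaces ran from -0.067 to 0.46 (Ptprc to Cd68, day 4), -0.22 to 0.19 (Ptprc to Cd68, day 7, or -0.0034 with 1 added to each count), -0.72 to 0.12 (Cd74 to Cd68, day 4) and -1.26 to 0.13 (Ptprc to Cd74, day 14), and Cd74 to Cd68 at Plastic day 14 against day 4 ran from -0.58 to 0.19. The relations of component 1, which was not refitted, with Ptprc (0.351) and Cd74 (0.403) lost their call without the 4 linked libraries. At day 14 Ptprc rests on as few as 0 counts in a library, which limits its ratios most.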
